A study of Homo sapiens with 6 samples.

Results

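The mRNAs described here encode the aminoacyl-tRNA synthetases, and the values are the cross-links of eIF4B mapped on them by iCLIP. The cells were DoHH-2, a line from diffuse large B-cell lymphoma, and the B-cell line GM01953 as a control. Members were taken by gene name, as the rows of the deposited tables named for a synthetase whose gene is a protein-coding synthetase in GENCODE release 44. This gave 37 genes, of 22125 gene identifiers and 13668 protein-coding genes in the tables. The 35 described here are 19 that encode cytosolic enzymes and 16, whose names end in 2, that encode mitochondrial ones. Both lines were cross-linked with UVC, the labels name no other treatment, and eIF4B was immunoprecipitated with its RNA. DoHH-2 has 4 replicates in the labels and GM01953 has 2, but these were pooled into 1 deposited table for each cell line. No spread between replicates could therefore be computed and no test between the lines was made. The intervals given are 95% intervals of counting error only, since neither the spread between cultures nor remaining PCR duplicates are in them.

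Each synthetase joins 1 kind of amino acid to its tRNAs, which then carry it to the ribosome. The cytosolic and mitochondrial enzymes are mostly encoded by separate nuclear genes. KARS1 and GARS1 are exceptions, because each of these genes provides the enzyme of both compartments, and both were counted as cytosolic. EPRS1 is a fusion enzyme that charges the tRNAs for both glutamate and proline, and FARSA and FARSB are the subunits of the phenylalanine enzyme. Several cytosolic synthetases are held with scaffold proteins in the multisynthetase complex. eIF4B is a cofactor of the helicase eIF4A, which unwinds mRNA during translation initiation.

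The tables hold 2033156 cDNA counts for DoHH-2 and 167197 for GM01953, a ratio of 12.2, so that values are compared between the lines only as CPM, the cDNA counts for every 1000000 counts of the cell line. As a rough check of the labels, the 4 B-cell markers MS4A1, CD79A, CD79B and PAX5 had counts in both lines, 737 in sum in DoHH-2 (362 CPM) and 260 in GM01953 (1555 CPM). MS4A1 stood at 6.39 CPM in DoHH-2 and 909 in GM01953. Of the 3 T-cell markers and the 3 myeloid markers, 0 had a count in either line. A cDNA count rises with the amount of an mRNA as well as with the eIF4B bound to each copy. These cannot be told apart here, since RNA levels were not analysed.

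The single nucleotides with the most counts are given first. In DoHH-2, 9 of the 35 mRNAs had at least 10 counts at 1 nucleotide, and in GM01953 3 had. The reference sequence around each is given from GRCh38, written 5′ to 3′ on the transcribed strand over 29 nt with the cross-linked nucleotide in capitals. UTR and CDS are those of the longest coding transcript. The share of protein-coding genes with at least 10 counts at 1 nucleotide is not given here. The DoHH-2 positions were the following.
AARS1, 15 counts, CDS in exon 8 of 21, chr16:70268346-70268374, minus strand: tgttgagacggattCtccgccgagctgtc
FARSB, 12 counts, CDS in exon 7 of 17, chr2:222633253-222633281, minus strand: acatatcattgaaaAcaaacccctgtatc
GARS1, 11 counts, 5′ UTR in exon 1 of 17, chr7:30594867-30594895, plus strand: cggcgcgcgccgctTccgtcgccaccctc
WARS1, 11 counts, 3′ UTR in exon 11 of 11, chr14:100334546-100334574, minus strand: catgggccaccctgTtcttgtccatggag
RARS1, 10 counts, CDS in exon 2 of 15, chr5:168488662-168488690, plus strand: ggagcttctccaaaTttggagcagttaca
KARS1, 10 counts, CDS in exon 4 of 15, chr16:75640262-75640290, minus strand: atacccacacaagtTccatgtagacatct
KARS1, 10 counts, CDS in exon 10 of 15, chr16:75631542-75631570, minus strand: aggcagttacaaggTcacctaccacccag
LARS1, 10 counts, CDS in exon 20 of 32, chr5:146142909-146142937, minus strand: ggatcttgttccaaAtcatctttcatatt
MARS2, 10 counts, 3′ UTR in exon 1 of 1, chr2:197708231-197708259, plus strand: ttacctcatgatttCttttggtcaatcag
YARS1, 10 counts, intron, chr1:32810418-32810446, minus strand: acctcattgtccttGtaattcatccatca

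For KARS1, the base just before the one shown in exon 10 also had 10 counts. The position in YARS1 lay outside the exons of every GENCODE transcript on that strand. The MARS2 position, like all MARS2 counts, was also listed under the non-coding gene AC011997.1. These sequences lay in an intron, both UTRs and the CDS, where 5 of the mRNAs had their highest position, and none of them except that of RARS1 had a count at the same nucleotide in GM01953. In GM01953 the 3 positions with at least 10 counts were these.
AARS2, 14 counts, CDS in exon 1 of 22, chr6:44313146-44313174, minus strand: tcgggaccgccatgGccaccggctggtgc
QARS1, 11 counts, CDS in exon 8 of 24, chr3:49101874-49101902, minus strand: caggcgagactgctGaccagaccctgtct
FARSA, 10 counts, CDS in exon 6 of 14, chr19:12928820-12928848, minus strand: ggactctgaagaccTactgggtgagcaaa

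The windows of QARS1 and FARSA run past an exon border and are shown as genomic sequence. These positions held much of what was counted on their mRNAs in GM01953, 66.7% of 21 counts for AARS2, 47.8% of 23 for QARS1 and 58.8% of 17 for FARSA. In DoHH-2 the same nucleotides had 1 count each in AARS2 and QARS1 and 0 in FARSA. Within 50 nt of the AARS2 and FARSA nucleotides no other position had a count in GM01953, and whether PCR duplicates remain in such values was not tested. The largest share that a position shown for DoHH-2 took of its gene was 12.3%, in RARS1. Positions with fewer than 10 counts, not shown, took larger shares in DoHH-2 in WARS2 and in SARS2 (22.2%). With far fewer counts in GM01953, a position of at least 10 counts there must take a large share of its gene. The shares of the positions shown therefore cannot be compared between the lines.

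Over all exonic positions of the 35 mRNAs, the cross-linked base was T in 40.4% of 4622 positions in DoHH-2 and in 39.3% of 163 positions in GM01953, against 24.6% of all bases in these mRNAs. The next base was T in 41.8% and 36.8%. G was the next base in 10.04% of the DoHH-2 positions, against 25.6% of all bases. UV cross-linking itself favours uridine, and the part of this in the base composition was not tested.

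With introns included, all 35 synthetase genes were hit in DoHH-2 and 33 were in GM01953. In exons 35 and 32 were hit, since the 5 counts of CARS2 in GM01953 were all in introns. In DoHH-2 the 35 mRNAs held 7805 counts at 6090 positions, or 3839 CPM (3755 to 3925). In GM01953 they held 397 counts at 202 positions, or 2374 CPM (2152 to 2619). The mRNAs of cytosolic enzymes took most of these, with 6588 counts in DoHH-2 and 304 in GM01953, against 1217 and 93 for the mitochondrial ones. PARS2 and SARS2, the mitochondrial proline and serine enzymes, had 26 and 27 counts in DoHH-2 and 0 in GM01953. A count of 0 of 167197 allows up to 17.9 CPM, which is above the 12.8 and 13.3 CPM of these mRNAs in DoHH-2, so a difference was not detectable at this depth.

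Positions with an FDR below 0.05 are called sites, and an mRNA with more than 20 counts at its sites is called bound. The study also required enrichment in iCLIP over total RNA, a step that this rule leaves out. In DoHH-2, 25 of the 35 synthetase mRNAs were bound by this rule, against 33.3% of all protein-coding genes with a count. They were 19 of 19 cytosolic mRNAs and 6 of 16 mitochondrial ones. The mitochondrial mRNAs that passed were TARS2 with 57 counts at sites, IARS2 and LARS2 with 37 each, RARS2 with 26, MARS2 with 22 and FARS2 with 21. In exons FARS2 had 3 of these counts and RARS2 18 of its 26, so 23 mRNAs passed at exonic sites alone. Just inside the threshold were FARS2 and RARS1 with 21 counts each, and just outside were VARS2 with 17, none of them in its exons, and YARS2 with 16. In GM01953 3 of the 35 were bound, EPRS1 with 33, YARS1 with 23 and AARS2 with 21 counts at sites, against 8.34% of all protein-coding genes. For AARS2, 14 of the 21 lay at the nucleotide shown above, and for YARS1 17 of the 23 lay in exons of any coding transcript. QARS1 lay just outside with 20. Thus 71.4% of the synthetase mRNAs passed in DoHH-2 and 8.57% in GM01953, the first above the share of all coding genes and the second close to it. DoHH-2 counts scaled to the total of GM01953, with no FDR threshold, left 10 synthetase mRNAs with more than 20 counts, against 7 in GM01953 counted the same way. No share of protein-coding genes is given for that rule, so neither number can be set against a background.

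Levels of different mRNAs were compared as exonic cDNA counts per kb of the longest coding transcript. In DoHH-2 the median was 71.0 per kb for the cytosolic mRNAs (quartiles 40.4 and 119) and 11.3 for the mitochondrial ones (7.10 and 21.5), a ratio of 6.28. The median of all protein-coding genes with a count was 9.08 per kb. All 19 cytosolic and 11 of the 16 mitochondrial mRNAs lay above it. In GM01953 the medians were 3.87 and 0.686 per kb, a ratio of 5.63, against 1.09 for protein-coding genes. The size of the ratio depended on what was counted, and at sites it was 92.5 in DoHH-2 and 2.47 in GM01953. In DoHH-2, AARS2, CARS2, HARS2, NARS2, PARS2, SARS2 and VARS2 had 0 counts at exonic sites and WARS2 had 2. The mitochondrial median at sites thus rested on few counts. For members with at least 20 exonic counts the ratio was 4.26 in DoHH-2, which left out FARS2, SARS2, VARS2 and WARS2. In GM01953 it was then 2.01, from EPRS1 and QARS1 against AARS2 alone. The median mRNA lengths were nearly alike, 2762 nt for the cytosolic and 2769 nt for the mitochondrial group.

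NARS1, the asparagine enzyme (chr18:57600656-57622213, minus strand), had the highest density in DoHH-2 with 219 per kb from 605 exonic counts. In GM01953 NARS1 had 2.90 per kb from 8. GARS1, the glycine enzyme, followed with 170 per kb in DoHH-2 and 6.92 in GM01953, from 417 and 17 exonic counts. EPRS1 had 139 and 8.23 per kb, from 677 and 40 exonic counts. These were the densest mRNAs in DoHH-2, and in GM01953 the order differed, with QARS1 first at 9.39 per kb and EPRS1 second.

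The next group in DoHH-2 could not be separated by counting error. SARS1, the serine enzyme, had 123 per kb (108 to 140), and KARS1, the lysine enzyme, had 119 (106 to 134). AARS1, the alanine enzyme, had 118 (108 to 130), TARS1, the threonine enzyme, had 116 (104 to 130), and IARS1, the isoleucine enzyme, had 112 (102 to 122). In GM01953 these mRNAs had 2.61 for SARS1, 7.02 for KARS1, 3.98 for AARS1, 6.74 for TARS1 and 3.87 for IARS1. YARS1, the tyrosine enzyme, had 73.1 per kb in DoHH-2 and 4.14 in GM01953, and LARS1, the leucine enzyme, had 71.0 and 1.67. The lower cytosolic mRNAs in DoHH-2 ran from MARS1 (67.9), WARS1 (61.4), QARS1 (46.5), HARS1 (41.9), FARSA (38.9), CARS1 (36.9), VARS1 (34.5) and RARS1 (31.1) down to FARSB (15.4). FARSB carries the longest 3′ UTR of the cytosolic members, 4972 nt, and 3 of its 104 exonic counts lay there beyond the stop codon region, so its density depends on the length used.

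The mitochondrial mRNAs were led in DoHH-2 by TARS2, the threonine enzyme, with 47.3 per kb from 129 exonic counts. Denser than TARS2 were 12 of the 19 cytosolic mRNAs. MARS2, the methionine enzyme, had 40.6 per kb, IARS2 had 32.6, YARS2 had 27.4 and NARS2 had 19.5. In GM01953 these mRNAs had 4.03 for TARS2, 0.661 for MARS2, 3.97 for IARS2, 1.89 for YARS2 and 0.796 for NARS2. The other mitochondrial mRNAs had at most 18.0 per kb in DoHH-2. They were RARS2 (18.0), HARS2 (15.3), CARS2 (11.97), PARS2 (10.6), AARS2 (10.0), EARS2 (9.82), SARS2 (7.28), LARS2 (6.57), VARS2 (4.42), WARS2 (3.91) and FARS2 (3.55). All 27 counts of SARS2 were also listed under another gene, CTC-360G5.8, as were 52 of the 78 counts of VARS2, under GTF2H4. In GM01953 the highest mitochondrial value was that of AARS2, 4.38 per kb, which came from 2 positions.

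When enzymes for the same amino acid were set side by side, the cytosolic mRNA was the denser in all 17 pairs in DoHH-2. EPRS1 and FARS2 each stood in 2 of these pairs. The median ratio was 7.82, and in the 17 pairs the counting interval lay above 1. SARS1 exceeded SARS2 16.9-fold (9.90 to 31.5), WARS1 exceeded WARS2 15.7-fold (8.58 to 32.0) and EPRS1 exceeded EARS2 14.2-fold (10.7 to 19.2). The smallest differences were those of TARS1 and TARS2 (2.46-fold), RARS1 and RARS2 (1.72-fold) and MARS1 and MARS2 (1.67-fold, 1.33 to 2.11). In GM01953 the cytosolic mRNA was the denser in 14 of 17 pairs, and the interval lay above 1 in 4. The mitochondrial mRNA was the denser for alanine, isoleucine and, against FARSB, phenylalanine, in values of few counts.

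The 7 synthetases of the multisynthetase complex described here had a median of 71.0 per kb in DoHH-2 and the 12 other cytosolic ones 67.3. In GM01953 the medians were 6.44 and 2.75. Both groups were wide in DoHH-2, from 31.1 (RARS1) to 139 (EPRS1) within the complex and from 15.4 (FARSB) to 219 (NARS1) outside it. Of 14 other genes of tRNA charging and delivery, 7 passed the rule for bound mRNAs in DoHH-2, against 33.3% of protein-coding genes, and 0 in GM01953, against 8.34%. AIMP2, a scaffold of the complex, had 198.7 per kb in DoHH-2, EEF1E1, another scaffold, had 67.8, and AIMP1 had 20.2. TUFM, which brings charged tRNAs to the mitochondrial ribosome, had 205 per kb, and EEF1A1, its cytosolic counterpart, had 30.2, although EEF1A1 has near-identical pseudogene copies that share reads. DTD1, which removes D-amino acids from tRNAs, had 10.9 and MTFMT, which formylates the mitochondrial initiator tRNA, had 20.8. The genes that did not pass were TARS3, GATB, GATC, QRSL1, PSTK, SEPSECS and AARSD1, with 15 to 50 counts each in DoHH-2. TARS3 is itself a threonine enzyme, whose name the rule for members does not take.

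Relative to all cDNA counts of the cell line, the synthetase mRNAs took a larger share in DoHH-2 than in GM01953. The ratio of CPM was 1.62 (1.46 to 1.79) over all 35, 1.78 (1.59 to 2.01) over the cytosolic and 1.08 (0.871 to 1.34) over the mitochondrial mRNAs, against 1.09 over all protein-coding genes. The median ratio of single genes was 1.96 for cytosolic, 1.14 for mitochondrial and 1.15 for all protein-coding genes with at least 20 counts over both lines, a gene with a count of 0 being set to 3 counts. More than 2-fold higher in DoHH-2 were 12 of 35 synthetase mRNAs, against 24.3% of protein-coding genes. They were 9 cytosolic and 3 mitochondrial mRNAs. More than 2-fold higher in GM01953 were 4 of 35, against 14.2% of protein-coding genes. A ratio above 1 was found for 26 of 35, against 56.8%. Counted only at sites, the ratio was 1.03 over all 35, 1.32 over the cytosolic and 0.288 over the mitochondrial mRNAs, and in exons alone the mitochondrial ratio was 0.938, so the direction for the mitochondrial group depended on the positions used.

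NARS1 had 678 counts in DoHH-2 and 12 in GM01953, or 333 and 71.8 CPM, a ratio of 4.65 (2.64 to 9.04). LARS1 had 680 and 14 counts, or 334 and 83.7 CPM, a ratio of 3.99 (2.36 to 7.35). SARS1 had 326 and 8 counts, a ratio of 3.35 (1.68 to 7.83). The intervals of all 3 lay above the median of protein-coding genes. RARS2 with 88 and 1 counts, MARS2 with 123 and 2, and NARS2 with 83 and 2 had ratios of 7.24 (1.27 to 289), 5.06 (1.37 to 42.2) and 3.41 (0.915 to 28.6), which rest on 1 or 2 counts in GM01953. Over all members the interval lay above 1 for 9 cytosolic and 2 mitochondrial mRNAs, against 19.3% of protein-coding genes with at least 20 counts. Whether an interval leaves out 1 also depends on the number of counts. The median in DoHH-2 was 129 counts for the members and 55 for all protein-coding genes with a count, so these shares are not compared at equal counts. Within the complex the ratio was 2.47 for IARS1, 2.22 for RARS1, 1.46 for EPRS1, 1.46 for KARS1 and 0.973 for MARS1. GARS1, with 501 and 22 counts, had 1.87.

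At the other end, AARS2 had 82 counts in DoHH-2 and 21 in GM01953, or 40.3 and 126 CPM, a ratio of 0.321 (0.197 to 0.546). FARS2 had 65 and 13 counts (0.411, 0.224 to 0.813), QARS1 125 and 23 (0.447, 0.285 to 0.731) and FARSA 99 and 17 (0.479, 0.284 to 0.855). These were the 4 members whose interval lay below 1, against 14.3% of protein-coding genes, and IARS2 followed with 129 and 14 counts and a ratio of 0.758 (0.436 to 1.42). In each of the 4 a single nucleotide held between 46.2% and 66.7% of the GM01953 counts. For FARS2 that nucleotide, with 6 of 13 counts, was in an intron. When positions were counted in place of cDNAs, the mitochondrial ratio was 1.85 and the cytosolic one 2.04. Without AARS2 and FARS2 the mitochondrial ratio was 1.49, a comparison chosen after the values were seen.

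Many of the GM01953 positions were also seen in DoHH-2. Of the 202 positions in GM01953, 75 (37.1%) had a count at the same nucleotide in DoHH-2, against 33.0% over protein-coding genes. The share was 42.1% for the cytosolic and 15.8% for the mitochondrial mRNAs, the latter from 6 of 38 positions. It depends on how many nucleotides were hit in DoHH-2, 5036 in the cytosolic and 1054 in the mitochondrial mRNAs, and was not adjusted for this. These 75 were 1.23% of the DoHH-2 positions. RARS1 was the only member with the same single highest position in both lines. In RARS1, the arginine enzyme, the T shown above in exon 2, 119 nt into the coding sequence, held 10 of 81 counts in DoHH-2 and all 3 counts in GM01953. In HARS1, the histidine enzyme, a nucleotide of the 3′ UTR at chr5:140674059 held 7 of 133 counts in DoHH-2 and 2 of 5 in GM01953, where another position also had 2. In SARS1 a position shared the highest count with 1 other in DoHH-2, at 7 counts, and with 7 others in GM01953, at 1 count. Across the 35 mRNAs the exonic counts of the lines had a Spearman correlation of 0.718, a description over genes that share their libraries and lengths. It was 0.527 within the 19 cytosolic and 0.436 within the 16 mitochondrial mRNAs. Most positions held a single count, 84.2% in DoHH-2 and 60.4% in GM01953.

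By region of the mRNA, the cross-links of DoHH-2 were densest in the one that holds the start codon. The mRNA was divided into the 5′ UTR, a start codon region reaching 50 nt to each side, the CDS, a stop codon region of the same kind and the 3′ UTR. In DoHH-2 the cytosolic mRNAs had 100.2 counts per kb in the 5′ UTR, 218 at the start codon, 85.1 in the CDS, 50.97 in the 3′ UTR and 124 at the stop codon. The mitochondrial mRNAs had 18.8, 73.7, 17.4, 7.52 and 18.1 per kb in the same order. The start codon region was thus 2.56 times as dense as the CDS in the cytosolic and 4.24 times in the mitochondrial mRNAs, against 3.64 times in protein-coding genes other than histones with more than 20 exonic counts. At the stop codon the density was 1.45 times that of the CDS in the cytosolic and 1.04 times in the mitochondrial mRNAs, from 242 and 29 counts, against 1.98 in those coding genes. The 5′ UTR stood at 1.18 times the CDS in the cytosolic and 1.08 times in the mitochondrial mRNAs, but with the Ensembl canonical transcript at 2.41 and 2.68 times. Its cytosolic value includes YARS1, with 7 counts on 737 nt, and WARS1, with 7 on 569 nt. In finer windows the cytosolic mRNAs had 230 per kb at -100 to -76 nt from the start codon and 253 at -50 to -26. They had 166 at 0 to 24 and 242 at 50 to 74, without a peak at the codon itself. The mitochondrial mRNAs were highest at 0 to 24, with 97.5 per kb from 39 counts. In GM01953 the order of the regions was not the same. The cytosolic mRNAs had 10.2 per kb at the stop codon, 9.21 at the start codon and 4.17 in the CDS, from 20, 17 and 180 counts. The mitochondrial mRNAs had 2.11 per kb at the start codon, from 3 counts, and 2.27 in the CDS.

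Because the CDS is long, it still held most of the cross-links. It took 69.0% (67.7 to 70.2) of the exonic counts of the cytosolic mRNAs on 67.0% of their length, and 58.0% (54.6 to 61.3) of those of the mitochondrial mRNAs on 51.1% of theirs. In protein-coding genes other than histones the CDS took 43.96% on 40.4% of the length. In GM01953 the CDS took 72.9% of 247 cytosolic and 86.3% of 73 mitochondrial exonic counts.

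The start codon region was the densest in 18 of the 31 synthetase mRNAs with more than 20 exonic counts in DoHH-2 (58.1%), against 39.6% of protein-coding genes. These were 10 cytosolic and 8 mitochondrial mRNAs. Among them, EARS2, GARS1, AARS2, YARS2, TARS2, MARS1, QARS1 and MARS2 had no 5′ UTR region, since their whole 5′ UTR lay within 50 nt of the start codon. The 5′ UTR could therefore not be the densest in these. The share of protein-coding genes without a 5′ UTR region is not given here, and its part in the difference was not tested. RARS2 is counted here with start and stop codon regions of equal density, and without ties the start codon was the densest in 17, against 38.3%. The 5′ UTR was the densest in 6 (background 25.6%), the 3′ UTR in 4 (12.6%), the stop codon in 2 (14.1%) and the CDS in 1 (8.07%). With the Ensembl canonical transcript the start codon was the densest in 19 of 31, against 38.8%, a comparison added after the values were seen. GARS1 had 60 counts on the 97 nt of its start codon region (619 per kb), and the nucleotide of its 5′ UTR shown above lay within it, 41 nt before the start codon. AARS1 had 58 counts there (563 per kb), against 116 per kb in its CDS. NARS1 had 485 per kb at the start codon and 391 in the 5′ UTR, but also 248 in the 3′ UTR, against 178 in the CDS. SARS1 had 379 per kb at the start codon and 291 at the stop codon. TARS2 had 26 counts at the start codon (306 per kb), of which 7 were on the base just before it.

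Other members departed from this pattern. KARS1 had 375 per kb in the 5′ UTR but 2 counts, or 19.4 per kb, around the start codon. These values are those of its longest coding transcript, which is not the canonical one, and they may differ there. With canonical transcripts the 5′ UTR was the densest in 3 cytosolic mRNAs in place of 4. The start codon was then the densest in 12 cytosolic mRNAs in place of 10 and in 7 mitochondrial ones in place of 8. EPRS1 had 299 per kb in the 5′ UTR and 295 in the 3′ UTR, against 129 in the CDS. IARS1 had 97 counts on 217 nt of the 5′ UTR (447 per kb), part of which is an intron in the canonical transcript. TARS1 had 292 per kb in the 5′ UTR and 198 in the 3′ UTR. YARS1 and FARSB were densest at the stop codon, with 194 and 97.1 per kb, for YARS1 again on a transcript that is not the canonical one. WARS1 had 80 of its 190 exonic counts in the 3′ UTR, and the nucleotide shown above lay 317 nt after the stop codon.

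**Figure D1:**
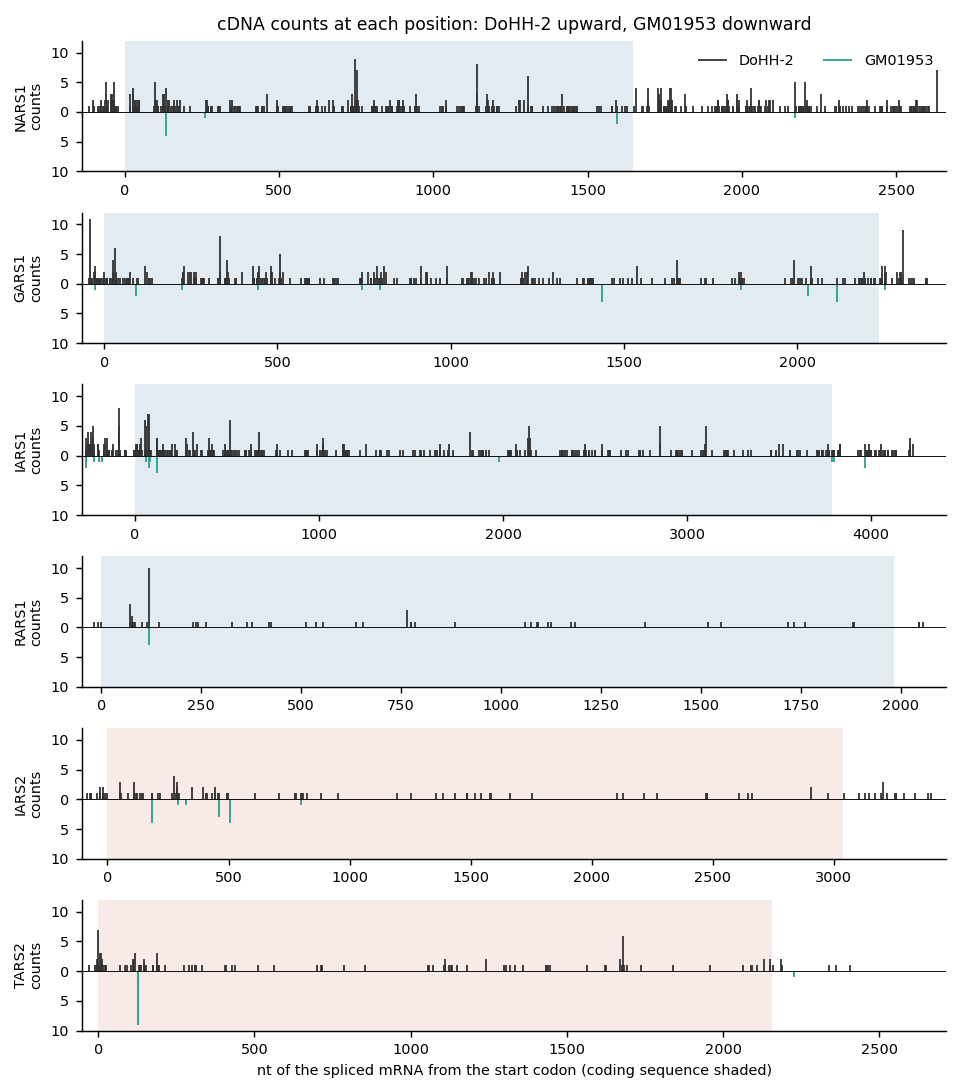
cDNA counts at each nucleotide of the spliced mRNA (x axis, nt from the start codon, with the coding sequence shaded) for 4 cytosolic (NARS1, GARS1, IARS1 and RARS1) and 2 mitochondrial (IARS2 and TARS2) synthetases, with DoHH-2 drawn upward and GM01953 downward on the y axis. In RARS1 both lines peak at the same nucleotide, and in TARS2 9 of the GM01953 counts lie at 1 nucleotide without a DoHH-2 count.

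Intron positions, within the gene but outside the exons of every coding transcript, took 19.0% (18.2 to 19.9) of the synthetase counts in DoHH-2, against 19.7% over protein-coding genes, and 14.1% (11.0 to 17.9) in GM01953, against 20.7%. The share in DoHH-2 was 17.8% for the cytosolic and 25.8% for the mitochondrial mRNAs. A further 4.52% of the mitochondrial counts lay outside the bounds of their gene in GENCODE release 44, of which VARS2 held 52 of 55 counts. The intron share ranged widely, from 3.85% in PARS2 and 4.32% in KARS1 to 83.1% in FARS2, and it was 29.7% in IARS1 and 31.0% in YARS1. MARS2, which has a single exon, had 0. A single highest position lay in an intron in 5 of 35 members in DoHH-2, which were FARS2, LARS2, SARS2, WARS2 and YARS1. The share of protein-coding genes with such a highest position is not given here. In IARS1 and SARS1 an intron position shared the highest count with an exonic one. In SARS1, 30 of the 90 intron counts lay within 200 nt, at chr1:109214557-109214756. In IARS1, 7 counts were also listed under the small RNAs SNORA84 and MIR3651 of its introns.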

How the data were processed

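Cross-linked RNA of DoHH-2 and GM01953 cells was sequenced by eIF4B iCLIP. The authors removed PCR duplicates, mapped the reads to GRCh38 with HISAT2 (version not given in the sources used here), pooled the replicates and counted cDNAs at each position with iCount. The deposited values are cDNA counts, not normalized, and an FDR (an adjusted p-value) made by the authors for each position. Positions count from 0 in the tables and were given here from 1. The members and the lists of other genes were chosen with earlier results of these data known.

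Each position was counted once for each gene and cell line. Positions in introns were kept in CPM (counts for every 1000000). The longest coding transcript of GENCODE release 44 gave lengths and regions. No density was computed for a region under 10 nt. Of the 37 synthetases matched, all were found in the release, but 2 of them, with 1 of the marker genes, are not reported here and enter no value of the synthetase groups. Of the other 35, 17 were listed under an older symbol. Wilson intervals were computed for shares, exact binomial intervals for ratios and exact Poisson intervals for densities, at the 95% level, with scipy 1.17.1. They cover counting error only. Setting a count of 0 to 3 for ratios was chosen after first values were seen. Steps were checked on simulated data. Named with full values were the 10 cytosolic and 5 mitochondrial mRNAs with the highest density in DoHH-2, the complex, KARS1, GARS1 and the 5 highest and 5 lowest ratios. Alternatives were another FDR or count threshold, another transcript, another scaling, other codon regions, exonic or unshared positions and positions in place of counts. No test was made, because each cell line has 1 pooled table.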

Additional observations from a re-analysis of the deposited data

How the results depend on the processing

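Of 56 alternative values, 20 stayed within counting error or within 1.5 times the main count, 34 moved beyond it and 2 changed direction. Those were the mitochondrial DoHH-2 to GM01953 ratio, 1.08 over all positions, which was 0.288 at positions with an FDR below 0.05 and 0.938 at exonic positions. With an FDR below 0.05 the synthetase mRNAs held 1638 CPM in DoHH-2 and 1591 in GM01953. The ratio between the lines at these positions was 1.03 for all and 1.32 for cytosolic mRNAs. The cytosolic to mitochondrial ratio of medians was 92.5 in DoHH-2, on a mitochondrial median of few counts, and 2.47 in GM01953. The 5′ UTR and start codon were then 1.64 and 3.82 times as dense as the CDS in cytosolic and 1.83 and 12.9 times in mitochondrial mRNAs. Exonic positions gave 3029 and 1914 CPM, positions listed under 1 gene gave 3722 in DoHH-2, and scaling to non-histone coding genes gave 5506 and 3472. With the canonical transcript the ratio of medians in DoHH-2 was 8.004, the 5′ UTR was 2.41 (cytosolic) and 2.68 (mitochondrial) times and the cytosolic start codon 2.90 times as dense as the CDS. Without division by length the ratio of medians in DoHH-2 was 4.37, and with positions in place of counts, chosen after the data were seen, 4.91. For members with at least 20 exonic counts the ratio of medians was 4.26 in DoHH-2. In GM01953 that setting gave 2.01, from EPRS1, QARS1 and AARS2 only. Without KARS1 and GARS1 the ratio of medians was 4.22 in GM01953. With codon regions of 25 nt the cytosolic 5′ UTR was 1.398 times as dense as the CDS. Counting positions gave ratios between the lines of 2.01 for all, 2.04 for cytosolic and 1.85 for mitochondrial mRNAs. More than 50 counts left 15 bound mRNAs in DoHH-2 and 0 in GM01953, and more than 10 counts gave 10 in GM01953. No FDR threshold gave 7 in GM01953, and scaling to its total left 10 in DoHH-2. For these thresholds no share of protein-coding genes is given, so the numbers have no background. Added after the data were seen, leaving out AARS2 and FARS2 gave a mitochondrial ratio between the lines of 1.49. The causes were not tested.

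No paired analysis was possible because the deposited columns pool the replicates and carry no replicate numbers, and for the same reason no replicate could be left out. Depth limits GM01953 most, where 397 counts were spread over 35 mRNAs.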
